A study of Mus musculus with 6 samples.

Results

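The genes of the proteasome and of its assembly were followed in regulatory T cells with and without the transcriptional repressor Blimp1. Members were all genes whose symbol on the array begins with Psma, Psmb, Psmc, Psmd, Psme, Psmf or Psmg, with the probe of highest mean over the 6 arrays standing for each gene. There were 49 such genes, on 86 of the 45281 probes, and 41 of them were above background and tested among 9589 genes in all. Of these 41, Psmc3ip and Psme3ip1 share the letters of the symbol but encode interacting proteins, not subunits. No probe carries the symbol Psmf1, the gene of an inhibitor of the proteasome, in the annotation used here.

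The cells were pTreg cells, Foxp3+ regulatory T cells that arise outside the thymus. Naive CD4+ CD44low CD25- Foxp3-GFP- T cells were taken from pooled lymph nodes and spleens of donors aged 8 to 10 weeks and injected in equal parts of both genotypes into C57BL/6 RAG1-/- mice, which make no T or B cells of their own. The Ctrl donors were Thy1.1+, Prdm1+/+ and CD4-Cre+, and the CKO donors were Thy1.2+, Prdm1 flox/flox and CD4-Cre+, so that both groups carried the Cre transgene and all donors carried the Foxp3-GFP reporter. CD4-Cre acts in all T cells from the thymus on, so that the deletion of Prdm1, the gene of Blimp1, is meant to precede the pTreg state. The allotype at Thy1 differs between the groups along with Prdm1, and the effects of both, and of any donor sequence linked to Thy1, cannot be told apart. After 6 to 8 weeks CD4+ Foxp3-GFP+ cells were recovered, and RNA of 3 Ctrl and 3 CKO samples, called biological replicates by the study, was measured on Illumina bead arrays. The labels name a stimulus, P+I, for replicates 2 and 3 and none for replicate 1. One label field reads iTreg where another reads peripheral Treg cells.

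The proteasome is a barrel of stacked rings of alpha and beta subunits that degrades proteins tagged with ubiquitin, and 3 of its beta subunits carry the proteolytic sites. A cap made of a base, with ATPases that unfold substrates, and a lid, with the enzyme that removes ubiquitin, closes each end. Interferon-gamma induces replacement catalytic subunits, encoded by Psmb8, Psmb9 and Psmb10, and an 11S cap encoded by Psme1 and Psme2, which together form the immunoproteasome and favour peptides that fit class I MHC molecules. Lymphocytes carry immunoproteasomes even at rest, and chaperones that leave the finished particle guide its assembly.

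Values are background-subtracted linear intensities, which the authors had quantile normalized and which, because their medians still differed between the 2 slides, were quantile normalized again here over the 6 arrays. Intensities of different probes do not compare levels of different genes, so each gene was followed across arrays only. Background levels lay between 6.18 and 9.57. The Prdm1 probe had intensities of 18.9, 50.9 and 49.2 in Ctrl and of 561, 341 and 704 in CKO replicates 1, 2 and 3. It was higher in CKO, but no source used here places the probe inside or outside the deleted part, so it checks nothing about the deletion. Mean intensities with SD over 3 arrays were 278 ± 178 and 271 ± 142 for Foxp3, and 5014 ± 1569 and 111 ± 14.9 for Il10, in Ctrl and CKO cells. The summed intensity of 5 Treg markers was 10612 to 14830 in Ctrl and 5494 to 6652 in CKO. Of these, Ctla4, Ikzf2 and Tnfrsf18 met the study's thresholds without a block, as did 7.41% of all genes. Their log2 fold changes were -1.12, -1.45 and -1.23, with each CKO array below each Ctrl array. Il2ra had -0.63 and Foxp3 had 0.03. The Cd4 probe was dim, at 17.2 to 62.8, Cd8b1 had 544 to 1031, and Cd8a was above background on no array. The sum of 6 myeloid markers ranged from 2439 to 31483 in Ctrl and from 1653 to 22051 in CKO and was lower in CKO in each of the 3 pairs of one replicate number, with Itgam above background on no array and S100a8 at 1083 to 20847. The sum of the CD4 T cell markers was 5081 to 8525 in Ctrl and 4340 to 5172 in CKO, lower in CKO in each pair, as were Cd3e, at a log2 fold change of -0.44, and Cd3g, at -0.59. Cd3g met the study's thresholds only once the replicate was a block, as did Il2ra, S100a8 and S100a9, where 12.1% of all genes met them. Erythroid markers summed to 1246 to 4772 in Ctrl and 1377 to 4082 in CKO. B cell markers summed to 19.7 to 31.1 and NK cell markers to 18.5 to 30.7 over all arrays, close to background. In such bulk samples fewer cells of a type and less RNA per cell cannot be told apart, and the part of the Treg, T cell, myeloid and erythroid markers in the results was not tested.

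No proteasome gene passed a threshold between Ctrl and CKO pTreg cells in limma without a block. At an adjusted p under 0.05 there were 0 of 41 proteasome genes, where 0.271% of all genes passed. The study's thresholds (unadjusted p under 0.05 and 1.5-fold or more) were met by 0 of 41 against 7.41% of all genes, and at an unadjusted p under 0.05 alone 0 of 41 against 8.04%. The lowest p of any member, each on its chosen probe, was 0.098, for the assembly chaperone gene Psmg1 (limma adjusted p = 0.74). Log2 fold changes of CKO over Ctrl ran from -0.26 for Psmd8 to 0.68 for Psmd2, with a median of 0.10 over the 41 genes and of 0.02 over all genes. In the 3 pairs, the median of the proteasome genes was 0.06, 0.19 and 0.08 and that of all genes 0.07, 0.04 and -0.07. Of the 41, 27 were above 0 and 14 below, as were 5028 and 4561 of the 9589 genes. In an alternative, arrays were scaled to a common median, taken on each array over the probes above its own background. That set of probes differs between arrays. This moved the median of all genes to -0.08, and 20 of the 41 were above 0 and 21 below.

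How large a change these arrays leave room for can be read from the 95% intervals of the fold. Without a block, for 35 of the 41 genes, 85.4%, the interval lay within 2-fold either way, as it did for 57.7% of all genes. The 6 others were Psmd2, Psmd5, Psmd6, Psmd9, Psmd14 and Psmg3. The interval lay within 1.5-fold for 4 of 41, 9.76%, which were Psmc3, Psmd1, Psmb3 and Psmd13, against 5.95% of all genes. With the replicate as a block the intervals lay within 2-fold for 39 of 41 members, all but Psmd2 and Psmd9, against 76.4% of all genes, and within 1.5-fold for 18 of 41 against 22.5%. In that fit 2 members had an interval off 0, as did 1537 of the 9589 genes: Psmd9, at 0.16 to 1.15 on the log2 scale, and Psmd6, at 0.033 to 0.96 (limma adjusted p = 0.28 with the block). Without a block the interval reached past 1.5-fold for all members but the 4 named, so a missed threshold does not show that the genotypes were alike.

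**Figure D1:**
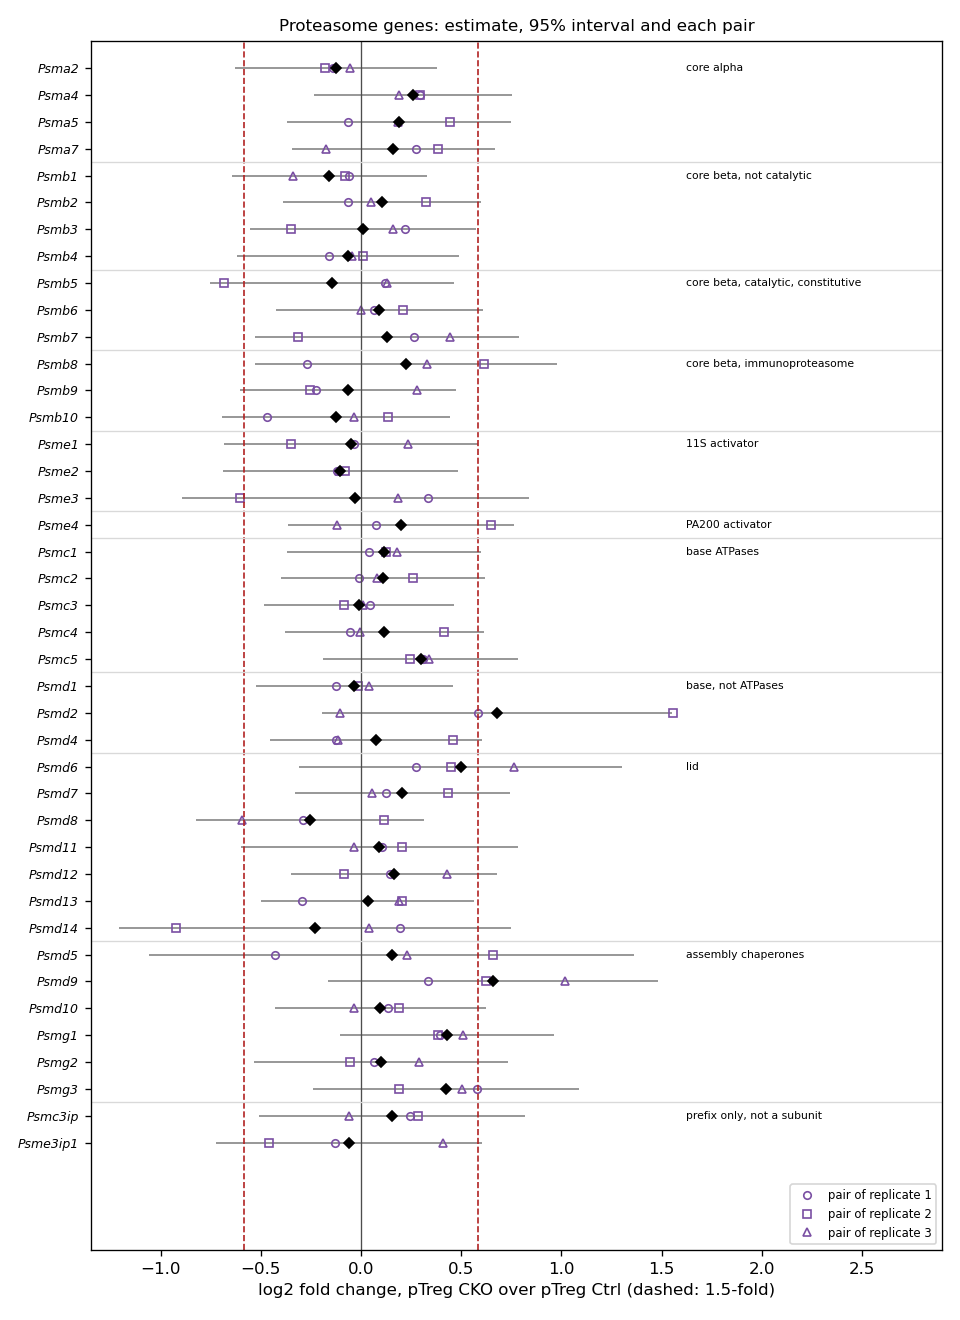
Log2 fold change of CKO over Ctrl pTreg cells (horizontal axis) for the 41 proteasome genes in order of their role. Diamonds are estimates, lines are 95% intervals from limma without a block, open symbols are the 3 pairs and dashed lines mark 1.5-fold; every interval crosses 0, and the estimates run from -0.26 for Psmd8 to 0.68 for Psmd2.

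The spread of the proteasome genes over the 6 arrays was small. The highest array was a median of 1.46 times the lowest for the 41 genes and 1.98 times for all genes, and 22 of the 41, 53.7%, stayed within 1.5-fold over all arrays against 17.0% of all genes. Bright probes vary less, and 25 of the members had a mean intensity of 1000 or more. Among genes this bright the median range was 1.41-fold for the 25 members and 1.65-fold for all 1008 genes, and the median standard error of the log2 fold change was 0.23 and 0.25. Psmc3, an ATPase of the base, had the narrowest range of 1.13-fold, with intensities of 1330, 1483 and 1491 in Ctrl and of 1370, 1399 and 1498 in CKO replicates 1, 2 and 3. Those values interleave, with both arrays of replicate 1 below the other 4.

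**Figure D2:**
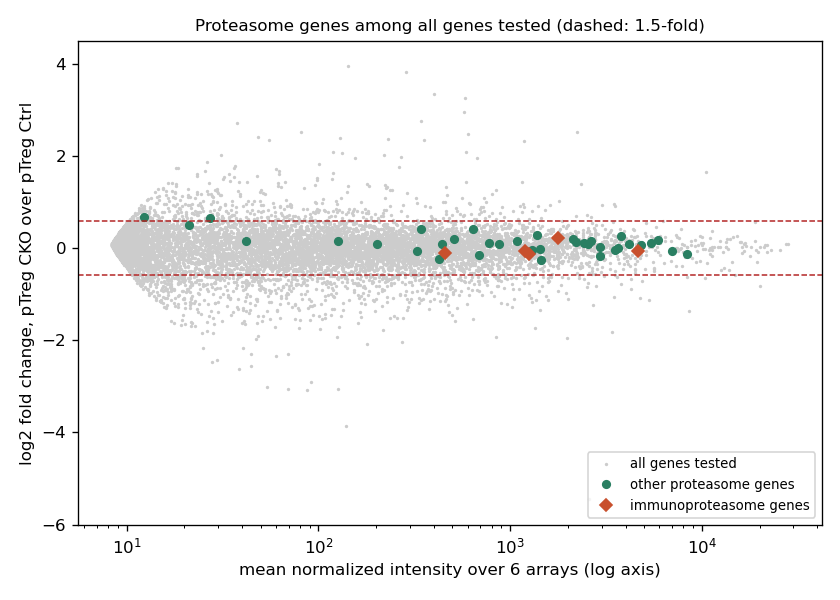
Log2 fold change of CKO over Ctrl (vertical axis) against mean normalized intensity over 6 arrays (horizontal log axis) for the 9589 genes tested, with the 41 proteasome genes coloured. The 41 lie between -0.26 and 0.68 on the vertical axis, and the 2 of them beyond the 1.5-fold lines, Psmd2 at 0.68 and Psmd9 at 0.66, are at the dim end.

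The 5 immunoproteasome genes had a median log2 fold change of -0.07, with 1 above 0 and 4 below, and pair medians of -0.22, -0.08 and 0.23. Psmb8, which replaces the chymotrypsin-like subunit Psmb5, had intensities of 2539, 1216 and 1279 in Ctrl and of 2107, 1860 and 1607 in CKO replicates 1, 2 and 3. The groups overlapped, and both arrays of replicate 1 were above the other 4. Its log2 fold change was 0.22 (standard error, SE, 0.32, 95% interval -0.53 to 0.97, limma adjusted p = 0.95). It was 0.57 without Ctrl replicate 1 and 0.035 without Ctrl replicate 2. A second Psmb8 probe had -0.10, so the sign of this gene depends on the probe.

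Psmb9, which replaces the caspase-like subunit Psmb6, had 1160, 1432 and 1085 in Ctrl and 994, 1201 and 1316 in CKO. The values overlapped, with CKO lower in the pairs of replicates 1 and 2 and higher in that of replicate 3, and the log2 fold change was -0.07 (SE 0.23, 95% interval -0.60 to 0.47). Psmb10, which replaces the trypsin-like subunit Psmb7, had 1382, 1081 and 1466 in Ctrl and 999, 1184 and 1429 in CKO. Its lowest value was that of CKO replicate 1, its groups overlapped, and its log2 fold change was -0.12 (SE 0.24, 95% interval -0.69 to 0.44).

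The 11S cap genes were followed next. Psme1 had 4792, 6100 and 3387 in Ctrl and 4676, 4792 and 3977 in CKO, with Ctrl holding both the highest and the lowest array and a log2 fold change of -0.05 (SE 0.27, 95% interval -0.68 to 0.58). Psme2 had 576, 452 and 396 in Ctrl and 529, 427 and 368 in CKO. It was lower in CKO in each pair, with log2 fold changes of -0.12, -0.08 and -0.11, but the replicates differed by more than the genotypes and the groups overlapped (log2 fold change -0.10, SE 0.25, limma adjusted p = 0.98). Psme3, whose product forms an 11S cap in the nucleus and is not induced with the other members of that family, had 1597, 1409 and 878 in Ctrl and 2012, 925 and 999 in CKO. It overlapped as well, at a log2 fold change of -0.03.

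The constitutive catalytic subunits stood no further apart. Psmb5 had intensities of 726, 873 and 567 in Ctrl and of 787, 543 and 621 in CKO replicates 1, 2 and 3, a log2 fold change of -0.15 (SE 0.26, 95% interval -0.75 to 0.46). CKO was lower in the pair of replicate 2 only. Psmb6 had 2710, 2468 and 2238 in Ctrl and 2831, 2849 and 2235 in CKO, with a log2 fold change of 0.09 (SE 0.22, 95% interval -0.42 to 0.60), and its replicate 3 values were nearly equal. Psmb7 had 2468, 2085 and 1703 in Ctrl and 2962, 1674 and 2320 in CKO, a log2 fold change of 0.13 (SE 0.28, 95% interval -0.52 to 0.79). Its 4 probes above background gave -0.24 to 0.34, on both sides of 0.

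Whether an immunoproteasome subunit moved against the constitutive subunit that it replaces was followed within the pairs, as the difference of their log2 fold changes. For Psmb8 against Psmb5 the pairs of replicates 1, 2 and 3 gave -0.39, 1.30 and 0.20. For Psmb9 against Psmb6 they gave -0.29, -0.46 and 0.28, and for Psmb10 against Psmb7 -0.73, 0.45 and -0.48. None of the 3 had one sign in all pairs.

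**Figure D3:**
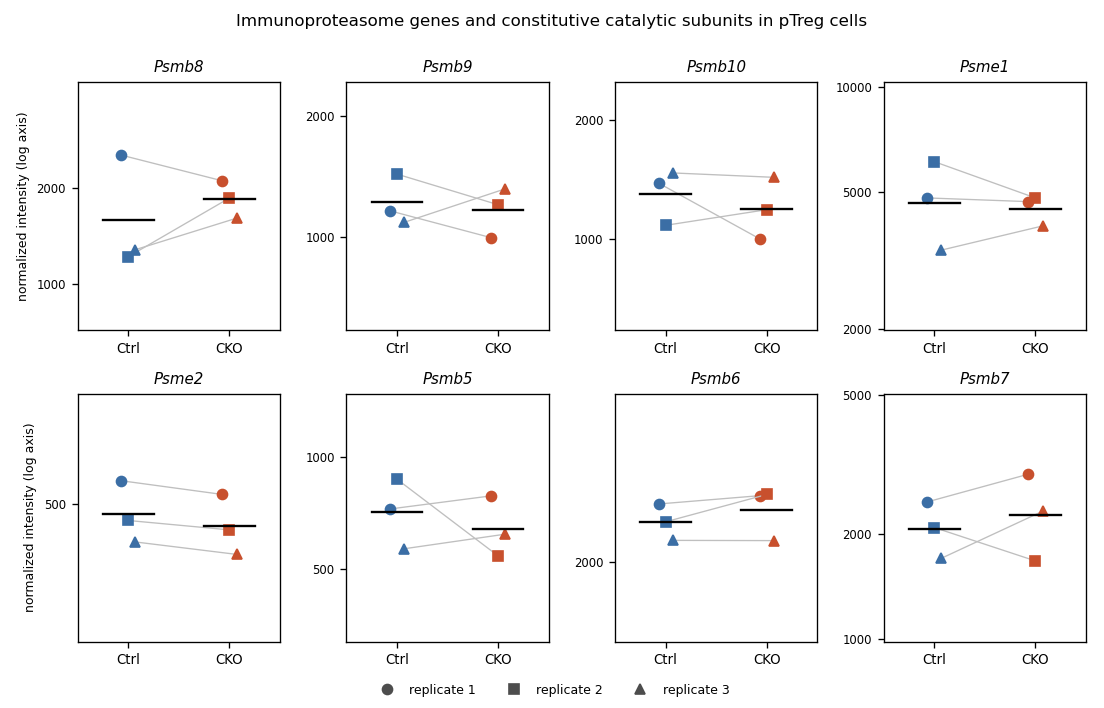
Normalized intensity (vertical log axis) of the 5 immunoproteasome genes and the 3 constitutive catalytic subunits in Ctrl and CKO pTreg cells, with a symbol per replicate, grey lines joining the pairs and black bars at group means of log2 values. The groups overlap in each of the 8 genes, and the highest Psmb8 values, 2539 and 2107, are those of replicate 1.

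Of the alpha ring, which gates the barrel, 4 of 8 genes were tested, with log2 fold changes of -0.12 for Psma2, 0.26 for Psma4, 0.19 for Psma5 and 0.16 for Psma7. Psma4 was higher in CKO in each pair and Psma2 lower in each pair. Psmb1, Psmb2, Psmb3 and Psmb4 encode beta subunits without a proteolytic site. Psmb1 had intensities of 3074, 2815 and 3395 in Ctrl and of 2952, 2658 and 2687 in CKO. Psmb1 was lower in each pair, with CKO replicate 1 inside the range of Ctrl, at a log2 fold change of -0.16 (SE 0.21, limma adjusted p = 0.95). Psmb2, Psmb3 and Psmb4 had 0.10, 0.01 and -0.07.

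In the cap, 5 of 6 ATPase genes were tested, with a median log2 fold change of 0.11. Psmc5 had 1146, 1231 and 1316 in Ctrl and 1422, 1456 and 1667 in CKO, so that each CKO array lay above each Ctrl array. Its log2 fold change was 0.30 (SE 0.21, limma adjusted p = 0.85). A second Psmc5 probe had 1245, 883 and 802 in Ctrl and 1500, 1295 and 1275 in CKO, also without overlap. That probe had 0.50 (SE 0.25, limma unadjusted p = 0.085 in a fit over all probes above background). The other 4 ATPase genes lay between -0.01 for Psmc3 and 0.12 for Psmc4. Psmd1 and Psmd4, a scaffold and a ubiquitin receptor of the base, had -0.03 and 0.07. Psmd2, which encodes another scaffold of the base, had the highest estimate of the members at this background level but a dim probe, with 8.64, 8.67 and 9.57 in Ctrl and 12.9, 25.5 and 8.90 in CKO once raised to background. It was above background on 3 of 6 arrays, and its log2 fold change of 0.68 (SE 0.37, limma adjusted p = 0.75) came with values that differed 2.95-fold over the arrays and were highest in CKO replicate 2. Without CKO replicate 3 it was 1.02 and met the study's thresholds, and without CKO replicate 2 it was 0.26. With the background at the 99th percentile Psmd2 had 0.40, below Psmd9 at 0.60, and with 16 added before log2 in place of a floor it had 0.34, below Psmg1 at 0.41.

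Of the lid, 7 of 8 genes were tested. Psmd14, the enzyme that cuts ubiquitin off substrates, had intensities of 306, 424 and 613 in Ctrl and of 350, 223 and 631 in CKO, with a log2 fold change of -0.23 (SE 0.42). The replicates spread more widely than the genotypes, and CKO was lower in the pair of replicate 2 only. Psmd8 had 1800, 1363 and 1580 in Ctrl and 1473, 1473 and 1047 in CKO, a log2 fold change of -0.26 (SE 0.24, limma adjusted p = 0.91), the lowest of the members. Its groups overlapped.

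Psmd6 was dim, with 14.9, 14.3 and 22.4 in Ctrl and 18.1, 19.5 and 38.1 in CKO. It was higher in CKO in each pair, at a log2 fold change of 0.50 (SE 0.35, limma adjusted p = 0.85), while its second probe had -0.01. Without CKO replicate 3 the value was 0.16. The remaining lid genes lay between 0.03 for Psmd13 and 0.20 for Psmd7. Psme4, which encodes the separate activator PA200, had a log2 fold change of 0.20.

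The 6 tested assembly chaperone genes were all above 0, as were 5028 of the 9589 genes. They had a median log2 fold change of 0.29 and pair medians of 0.23, 0.29 and 0.40. Psmg2, Psmd5 and Psmd10 lay near the median of all members, at 0.10, 0.15 and 0.10, and the highest, Psmd9, had a dim probe. With arrays scaled to a common median 5 of 6 were above 0, with a median of 0.20, and between 4 and 6 were when arrays were left out. None met the study's thresholds without a block. Psmg1, which pairs with Psmg2 to build the alpha ring, had intensities of 253, 327 and 301 in Ctrl and of 333, 426 and 429 in CKO replicates 1, 2 and 3. Each CKO array lay above each Ctrl array, though CKO replicate 1 only just so, and the log2 fold change was 0.43 (SE 0.23, 95% interval -0.10 to 0.96, limma adjusted p = 0.74, or 0.31 once the replicate was a block). Psmg2 had 0.10. Psmg3, which also builds the ring, had 392, 635 and 627 in Ctrl and 585, 724 and 888 in CKO, higher in each pair with overlapping groups, at 0.42 (SE 0.28).

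Psmd5, Psmd9 and Psmd10 encode chaperones of the base. Psmd9 had intensities of 32.0, 20.0 and 13.1 in Ctrl and of 40.3, 30.8 and 26.5 in CKO replicates 1, 2 and 3. It was higher in CKO in each pair, while Ctrl replicate 1 lay above CKO replicates 2 and 3. For Psmd9 the log2 fold change was 0.66 (SE 0.35, limma adjusted p = 0.74), its second probe had 0.46, and the value was 0.98 without Ctrl replicate 1 and 0.34 without Ctrl replicate 3. With 16 added before log2 in place of a floor Psmd9 had 0.39. With the replicate as a block Psmd9 met the study's thresholds (limma adjusted p = 0.19). It was the 1 member of 41 to do so, where 12.1% of all genes did, and in that fit 0 of 41 passed the adjusted p against 1.96% of all genes. Psmd5 had 67.5, 16.5 and 42.5 in Ctrl and 50.2, 26.0 and 49.8 in CKO, the widest range of the members at 4.10-fold, and a log2 fold change of 0.15 (SE 0.52). Psmd10 had 0.10.

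**Figure D4:**
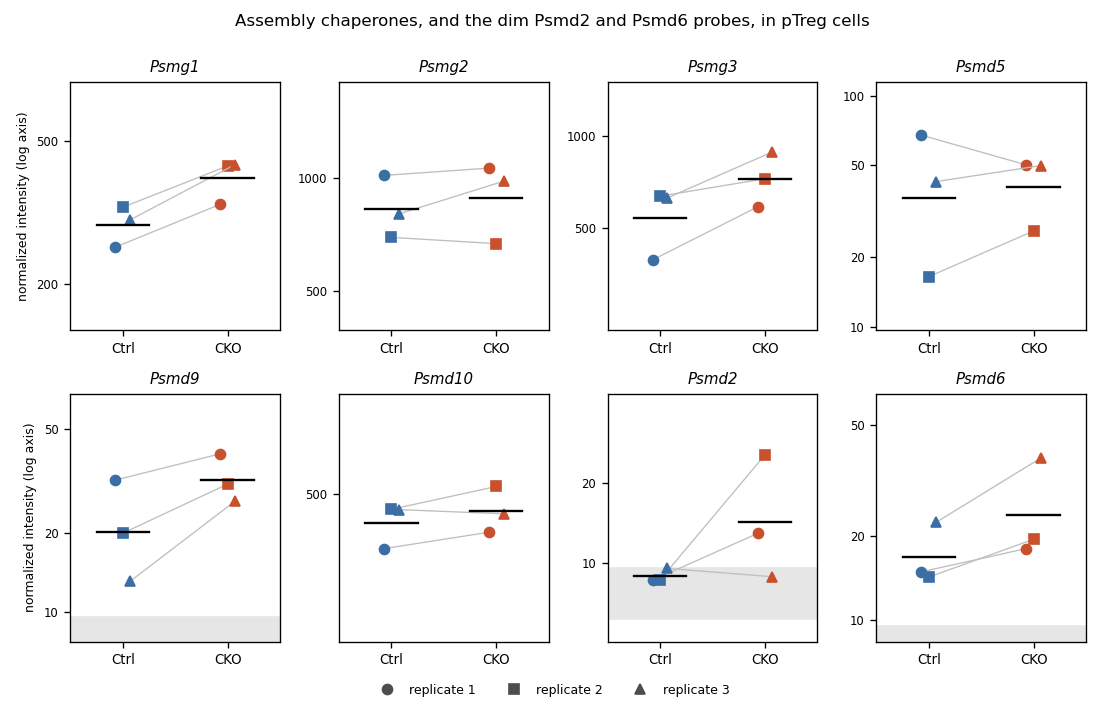
Normalized intensity (vertical log axis) of the 6 assembly chaperone genes, and of Psmd2 and Psmd6, in Ctrl and CKO pTreg cells, with a symbol per replicate, grey lines joining pairs, black bars at group means of log2 values and a grey band over the background levels. Psmg1 is at 253 to 327 in Ctrl and 333 to 429 in CKO, and Psmd9 is higher in CKO in all 3 pairs, and the Psmd2 values are near or inside the band except in CKO replicate 2.

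Directions were counted over the pairs. Of the 41 members, 8 were higher in CKO in all 3 pairs, 19.5% against 19.4% of all genes: Psma4, Psmc1, Psmc5, Psmd6, Psmd7, Psmd9, Psmg1 and Psmg3. The 3 that were lower in all 3 pairs were Psma2, Psmb1 and Psme2, 7.32% against 18.2% of all genes. The 3 CKO arrays all lay above the 3 Ctrl arrays for 2 of 41, Psmg1 and Psmc5, against 5.94% of all genes, and all below for 0 of 41 against 7.09%.

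Replicate 1 stood apart for some members, as it did for many other genes. The members were over the share of all genes on one side and under it on the other. Both arrays of replicate 1 were above the other 4 for 8 of 41 members, 19.5% against 8.99% of all genes, namely Psmb4, Psmb7, Psmb8, Psmd5, Psmd9, Psme2, Psme3 and Psmg2. They were below the other 4 for 4 of 41, Psma2, Psmc3, Psmd10 and Psmg3, 9.76% against 21.3% of all genes. Replicate 1 differs from replicates 2 and 3 in its slide and in the stimulus named in the labels, which cannot be told apart. Ifng, the inducer of the immunoproteasome, had intensities of 18891, 4885 and 27726 in Ctrl and of 24440, 18347 and 18597 in CKO, with the one low value in Ctrl replicate 2. Its part in the levels of Psmb8, Psmb9 and Psmb10 was not tested.

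**Figure D5:**
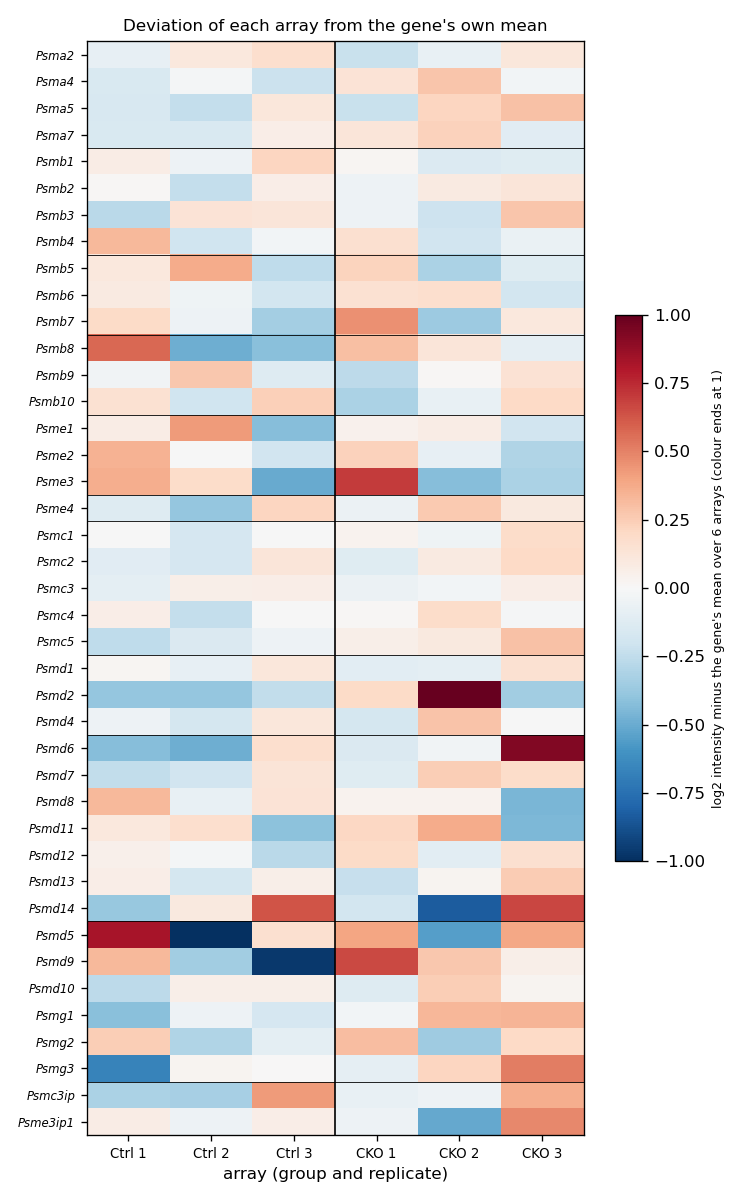
Log2 intensity of the 41 proteasome genes on each of the 6 arrays (columns) minus the gene's own mean over the arrays, in colour that ends at 1 either way, with genes in order of role. No block of one colour separates the 3 Ctrl from the 3 CKO columns, while Psmb8, Psme2 and Psme3 are above their mean on both arrays of replicate 1.

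The 8 members that were not tested were Psma1, Psma3, Psma6, Psma8, Psmb11, Psmc6, Psmd3 and Psmg4. Psmg4 was above background on 1 array, Ctrl replicate 2, at 13.2, and the others on none, with normalized values of -8.58 to 4.36. Psma8 and Psmb11 are known for proteasomes of the testis and of the thymic cortex. Psma1, Psma3, Psma6, Psmc6 and Psmd3 belong to every cell's proteasome, so a dark probe does not show that the gene was silent. More than 1 probe was above background for 21 members. For 7 of those 21 the probes had opposite signs, namely Psmb7, Psmb8, Psmd1, Psmd6, Psmd11, Psme4 and Psme3ip1, and no probe of the 21 had an unadjusted p under 0.05.

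Genes that act with the proteasome were taken from lists. The study's thresholds without a block were met by 7.41% of all genes, so a count of 0 in lists this short says little. Of 10 listed symbols of partners outside the symbol rule, which name Sem1 also by its older symbol Shfm1, 5 were tested and 0 met the thresholds. Pomp, which matures the core particle, had intensities of 3864, 4411 and 5282 in Ctrl and of 4655, 4547 and 5758 in CKO, a log2 fold change of 0.15 (SE 0.23). CKO was higher in each pair and the groups overlapped. Of 7 transcription factor genes 4 were tested and 0 met the thresholds, and Nfe2l1, which drives proteasome genes when proteasome activity falls short, had 710, 729 and 620 in Ctrl and 668, 764 and 633 in CKO, a log2 fold change of 0.00 (SE 0.21). Of 16 listed symbols for ubiquitin, its shuttles and the unfoldase Vcp, which name Ufd1 also by its older symbol Ufd1l, 9 were tested. Of these 0 met the thresholds, with log2 fold changes of -0.45 to 0.39.

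Of 14 class I presentation genes 13 were tested, and 0 met the study's thresholds without a block, against 7.41% of all genes. They had a median log2 fold change of -0.17, with 10 below 0 and 3 above, and pair medians of -0.30, -0.30 and -0.16. Of all 9589 genes, 4561 were below 0. Tap1, a chain of the peptide transporter and the neighbour of Psmb9, had 372, 485 and 413 in Ctrl and 324, 295 and 371 in CKO, lower in each pair at -0.36 (SE 0.22, limma adjusted p = 0.81), and CKO replicate 3 lay just under the lowest Ctrl array. Tap2, its partner, had 1960, 1255 and 1578 in Ctrl and 1212, 1615 and 1338 in CKO, at -0.19 (SE 0.25). H2-M3, a class I molecule that presents formylated peptides, had the largest difference of the list, at -0.56 (SE 0.25, limma adjusted p = 0.64).

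Of 11 inducers of the immunoproteasome 10 were tested, and 2 met the study's thresholds without a block, both lower in CKO, where 7.41% of all genes met them. Ifngr1, the ligand-binding chain of the interferon-gamma receptor, had 352, 156 and 239 in Ctrl and 87.9, 65.2 and 103 in CKO, with each CKO array below each Ctrl array. Its log2 fold change was -1.49 (SE 0.34, limma adjusted p = 0.18, or 0.030 once the replicate was a block). Jak1, a kinase of that receptor, had 25.3, 65.2 and 53.4 in Ctrl and 24.0, 21.3 and 18.8 in CKO, nearly equal in replicate 1, with a log2 fold change of -1.07 (SE 0.36, limma adjusted p = 0.42). Jak1 no longer met the thresholds when the array of Ctrl replicate 2 (-0.79), of Ctrl replicate 3 (-0.94) or of CKO replicate 3 (-0.98) was left out, or both arrays of replicate 2 (-0.79) or of replicate 3.

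Irf1, a transcription factor that binds promoters of immunoproteasome genes, had 2783, 2554 and 2561 in Ctrl and 1475, 1986 and 2004 in CKO. Each CKO array lay below each Ctrl array, at a log2 fold change of -0.54 (SE 0.22, limma adjusted p = 0.57) that was short of 1.5-fold. It met the study's thresholds with arrays scaled to a common median (-0.64) and with the mean of all probes (-0.78). Nlrc5, which activates class I genes, had 492, 733 and 423 in Ctrl and 676, 988 and 531 in CKO, higher in each pair with overlapping groups, at 0.41 (SE 0.32, limma adjusted p = 0.88).

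Sequence before the start of the genes was read from RefSeq promoters of GRCm38.p6, and 41 of the 49 members have 45 of them. A member was counted when any of its promoters matched, while the share over all counts each promoter, so the units differ. Over the 250 bases before the start, on both strands, AANNGAAA, letters bound by interferon regulatory factors, was in 10 members, 24.4%, and in 21.3% of 32851 promoters. The same letters preceded by GA were in 3 members, Psmb3, Psmd4 and Psmd9, 7.32% against 2.98% of promoters. GTGAAAG, the core that Blimp1 binds and that can overlap the former, was in 0 of 41 members against 3.57% of promoters, which says only that these letters are not in these windows. TGACNNNGC, the antioxidant response element bound by the Nfe2l1 protein, was in 5 members, Psmb5, Psmb6, Psmc6, Psmd9 and Psmd12, 12.2% against 10.2% of promoters. These are matches of letters, not sites shown to be bound.

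A set of 3 promoters is shown, with matches in capitals. Psmb9 is shown as an immunoproteasome gene with none of these letters in the window, at chr17:34187331-34187580 on the minus strand, where its RefSeq window of 300 bases and that of Tap1 on the opposite strand overlap by 275 bases. Psmb5, the subunit replaced by Psmb8, is at chr14:54617996-54618245 on the minus strand, with an antioxidant response element 47 bases before the start. Psmd9, the member that met the thresholds with the replicate block, is at chr5:123227940-123228189 on the plus strand, with GA and the interferon regulatory factor letters 159 bases and an antioxidant response element 31 bases before the start.
Psmb9: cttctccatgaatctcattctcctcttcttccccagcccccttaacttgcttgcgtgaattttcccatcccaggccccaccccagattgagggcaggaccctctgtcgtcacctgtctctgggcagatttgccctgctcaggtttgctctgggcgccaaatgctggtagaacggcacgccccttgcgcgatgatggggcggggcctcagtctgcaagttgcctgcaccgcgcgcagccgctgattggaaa
Psmb5: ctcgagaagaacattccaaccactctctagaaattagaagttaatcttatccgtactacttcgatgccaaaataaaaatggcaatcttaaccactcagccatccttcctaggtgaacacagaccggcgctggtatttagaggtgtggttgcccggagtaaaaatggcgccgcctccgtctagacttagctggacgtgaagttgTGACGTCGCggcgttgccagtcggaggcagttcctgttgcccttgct
Psmd9: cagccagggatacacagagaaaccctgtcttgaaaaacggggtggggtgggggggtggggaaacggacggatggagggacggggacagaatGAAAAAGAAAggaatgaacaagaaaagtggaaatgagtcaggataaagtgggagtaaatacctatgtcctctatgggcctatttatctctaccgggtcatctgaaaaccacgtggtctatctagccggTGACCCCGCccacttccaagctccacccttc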

How the data were processed

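Total RNA of sorted cells was amplified, labelled and hybridized to Illumina MouseWG 6v2 arrays by the authors. They exported linear intensity values from Genome Studio and quantile normalized them; between 35.4% and 36.0% of the deposited intensity values per array lie below 0. Their medians were 2.84 on slide 1 and 2.64 to 2.65 on slide 2, so all 6 arrays were quantile normalized together, raised to a background level and taken to log2. Background was set per array from 1503 probes of olfactory and vomeronasal receptors, at their 95th percentile. This replaces the detection p-values named in the methods, which are not used here. A probe was kept when above background on at least 2 arrays. Of 45281 probes, 34885 had 1 gene symbol in the annotation used here, 18 had several and 10378 had none, and symbols of 34807 were checked against RefSeq. Each of the 9589 genes was represented by its brightest probe.

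Groups were taken from the genotype labels and compared by lmFit and eBayes of limma 3.58.1 (R 4.3.3). No block was used, as none is named in the methods, and p-values were adjusted by Benjamini and Hochberg over all 9589 genes. Samples were paired by replicate number, because labels of replicates 2 and 3 give a shared day and replicate 1 has a slide to itself. Same-numbered samples deviated together from their groups (correlation across genes 0.51, 0.49 and 0.56). Samples of different numbers were not compared in this way, and replicates 2 and 3 share a slide, so these correlations cannot decide the pairing. Whether the samples of one number came from the same recipients is not stated. A fit with the replicate as a block is given where it changes a call. Standard errors, intervals and p-values without a block include the spread between replicates. The SE of Psmd9 was 0.35 without and 0.21 with the block, and that of Psmb8 was 0.32 and 0.23. The limma fit without a block was tested on simulated log2 values with independent noise. The normalization, background, probe choice and block fit were not tested in that way. The alternatives tried were other scalings and background rules, other probe rules, a slide block, a variance trend and leaving out arrays. The 3 arrays per group limit the precision.

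Genes named with values on every array were the 5 immunoproteasome genes, the 3 constitutive catalytic subunits, the members with the 4 largest differences in each direction, any member at the study's thresholds, and a few regulators. Psmg3, Psmc5, Psmc3, Psmd5, Psme3, Ifng and H2-M3, and the promoter motifs, were added once their values had been seen. The members and gene lists were chosen with earlier results of these data known.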

Additional observations from a re-analysis of the deposited data

How the results depend on the processing

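No proteasome gene passed an adjusted p of 0.05 from limma under any of the alternatives tried. The number of proteasome genes at the study's thresholds was 0 in the fit reported. With no filter on dim probes it was 2 of 49 (Psmd2 and Psmd9), where 5.47% of all genes met them. It was 1 of 41 (Psmd9) with the replicate block, against 12.1% of all genes, and 1 of 41 (Psmd9) with the slide block, against 8.8%. With arrays left out it was between 0 and 1, against 6.08% to 7.92% of all genes. Psmd9 met them without Ctrl replicate 1 or without both arrays of replicate 1. Psmd2 met them without CKO replicate 3 or without both arrays of replicate 3. With arrays scaled to a common median, the median log2 fold change of the proteasome genes went from 0.10 to -0.0011, while that of all genes went to -0.08. The gap between those medians was 0.08 both without and with that scaling. It was between 0.010 and 0.17 when arrays were left out, lowest without Ctrl replicate 3 and highest without Ctrl replicate 1. With no filter on dim probes both medians were 0.087, the value of any gene raised to background on all arrays. That setting therefore says nothing about the gap, and such genes also enter the fit in which Psmd2 and Psmd9 met the thresholds. The median of the proteasome genes itself lay between 0.050 and 0.13 with arrays left out. The median of the 5 immunoproteasome genes lay between -0.17 and 0.035 with arrays left out, so its sign depends on single arrays. The replicate block changed no other call of a named proteasome gene at the study's thresholds. The cause of the other shifts was not tested.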
